A study of Mus musculus with 8 samples.

Results

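The 49 genes described here encode the Wnt ligands, their receptors and the proteins that modulate the signal, out of 22725 gene symbols found in every expression table of the series. They were chosen by name: every gene whose symbol is Wnt or Fzd followed by a digit, the secreted inhibitors Sfrp1, Sfrp2, Sfrp4, Sfrp5 and Dkk1 to Dkk4, the R-spondins Rspo1 to Rspo4, the co-receptors Lrp5 and Lrp6, and Axin1, Axin2, Ctnnb1, Lef1, Tcf7 and Tcf7l1. They fall into 19 ligands, 12 receptors, 8 secreted inhibitors, 4 R-spondins and 6 intracellular proteins. The rule itself used no measured value, though it was set with earlier results of these data known.

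RNA was sequenced from mouse hypothalamus of Foxd1-mutant and wild-type embryos at the embryonic stages E12.0, E12.5 and E17.5. There was 1 mutant and 1 wild-type library at E12.0 and the same at E12.5, and there were 2 mutant and 2 wild-type libraries at E17.5, 8 in all. The study asked whether Foxd1, which encodes a forkhead transcription factor, is needed for neurons of the anterior hypothalamus to mature. The mutant embryos were called null in the account of the collection, with no allele given, and each library came from pooled embryos, 8 null and 10 control over the whole study. The account of the controls can be read as wild-type or as including carriers of the mutation, and it names E12.5 and E17.5 but not E12.0, so genotype and stage follow each library's source name. Nothing said that the pools came from separate litters, so p-values measure the spread between these libraries, which may be technical.

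Wnt proteins are secreted lipid-modified ligands that bind Frizzled receptors together with the co-receptors Lrp5 and Lrp6. In the canonical pathway binding stops the destruction of beta-catenin, the product of Ctnnb1, which then enters the nucleus and acts through the TCF and LEF factors. Sfrp proteins bind Wnts, most Dkk proteins block the co-receptors, R-spondins keep Frizzled receptors at the cell surface, and Axin1 and Axin2 are scaffolds of the complex that destroys beta-catenin. Axin2 is itself a widely used target of the pathway. In the forebrain, Wnt signals help to pattern the diencephalon and to control the growth of progenitors.

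Standard errors are written SE. Levels are given as FPKM, a fragment count scaled by transcript length and library size, which allows a comparison of genes with each other within a library. Foxd1, the mutated gene, stood at 2.77 FPKM in the mutant and 24.95 in the wild-type library at E12.0, at 2.50 and 30.3 at E12.5, and at 0.396 and 0.230 in the mutant against 3.90 and 1.96 in the wild-type libraries at E17.5. Every library lay on the side its genotype label gives. The 8 hypothalamic markers, Nkx2-1 and Rax among them, summed to between 33.8 and 168 FPKM per library. At E17.5 all 8 were lower in the mutant mean of log2(FPKM + 1), with a median log2 difference of -0.27. For Hmx3 the difference was only -0.03, and its mutant libraries lay on either side of both wild-type libraries. Tissue around the hypothalamus was also present: 7 markers of the meninges summed to between 5.67 and 8.38 FPKM at E12 and to between 102 and 173 FPKM at E17.5. At E17.5, 6 of the 7 were higher and 1 lower in the mutant mean of log2(FPKM + 1), with a median log2 difference of 0.55. The choroid plexus gene Ttr at E17.5 stood at 333 FPKM in mutant replicate 2 and 4.76 in mutant replicate 1. These lay on either side of 49.99 and 133 in the wild-type libraries. Mutant replicate 2 stood apart in its 7 telencephalon markers, which summed to 83.2 FPKM, against 38.1 in mutant replicate 1 and 34.9 and 33.8 in wild-type. All 7 were higher in the mutant mean of log2(FPKM + 1), with a median log2 difference of 0.63. The median over all genes was 0.003. The part of such tissue in the results below was not tested.

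The E12 tables list genes and the E17.5 tables list transcripts, and they may have been made separately, so levels are described across stages without a test. Genotypes were compared by limma on log2(FPKM + 1) for genes averaging at least 1 FPKM, with p adjusted over every gene tested by the method of Benjamini and Hochberg and called at 0.05. In bulk tissue, fewer cells of a type and less RNA per cell cannot be told apart.

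The promoters of 4 members are shown because they carry, or lack, the letters to which TCF and LEF factors bind, or because their genes lead the results that follow. Each is the 250 bases before an annotated transcription start in RefSeq on build GRCm38.p6, read 5′ to 3′ on the gene's strand, with a TCF and LEF motif (CTTTGAT or CTTTGAA, searched on both strands) in capitals. Wnt5b, a ligand, is at chr6:119449387-119449636 on the minus strand and is 1 of its 3 starts. Dkk1, a co-receptor inhibitor, is at chr19:30549497-30549746 on the minus strand. Wnt8b, a ligand of the early diencephalon, is at chr19:44493222-44493471 on the plus strand. Axin2 is at chr11:108920099-108920348 on the plus strand.
Wnt5b: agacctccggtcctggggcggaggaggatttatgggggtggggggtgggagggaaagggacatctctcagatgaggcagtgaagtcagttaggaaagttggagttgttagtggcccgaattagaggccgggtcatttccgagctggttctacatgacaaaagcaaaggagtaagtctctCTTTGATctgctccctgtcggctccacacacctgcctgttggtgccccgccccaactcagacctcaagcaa
Dkk1: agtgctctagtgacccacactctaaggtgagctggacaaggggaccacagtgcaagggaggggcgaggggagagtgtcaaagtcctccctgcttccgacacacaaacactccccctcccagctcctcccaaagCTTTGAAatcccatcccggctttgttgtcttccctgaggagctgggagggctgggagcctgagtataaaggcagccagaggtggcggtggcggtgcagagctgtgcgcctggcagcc
Wnt8b: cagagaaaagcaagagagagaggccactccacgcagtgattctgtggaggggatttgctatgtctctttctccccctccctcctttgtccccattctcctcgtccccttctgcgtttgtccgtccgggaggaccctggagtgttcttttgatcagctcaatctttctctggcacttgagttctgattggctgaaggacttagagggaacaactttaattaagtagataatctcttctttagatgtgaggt
Axin2: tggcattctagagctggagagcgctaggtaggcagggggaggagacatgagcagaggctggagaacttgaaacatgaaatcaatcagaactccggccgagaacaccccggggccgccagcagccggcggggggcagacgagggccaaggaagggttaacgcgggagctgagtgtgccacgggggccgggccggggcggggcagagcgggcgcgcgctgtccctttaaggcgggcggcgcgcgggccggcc
Of the members, 32 matched the promoter table, with 40 promoters. These letters occurred in 3 of the 40, those of Dkk1, Wnt5b and Wnt11, which is 7.5%, against 7.48% of 32851 mouse promoters of the same length. The forkhead motif GTAAACA, searched on both strands, occurred in 0 of the 40, against 3.17% of all promoters. A match is only a run of letters and no match says only that these letters are not in the window.

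**Figure D1:**
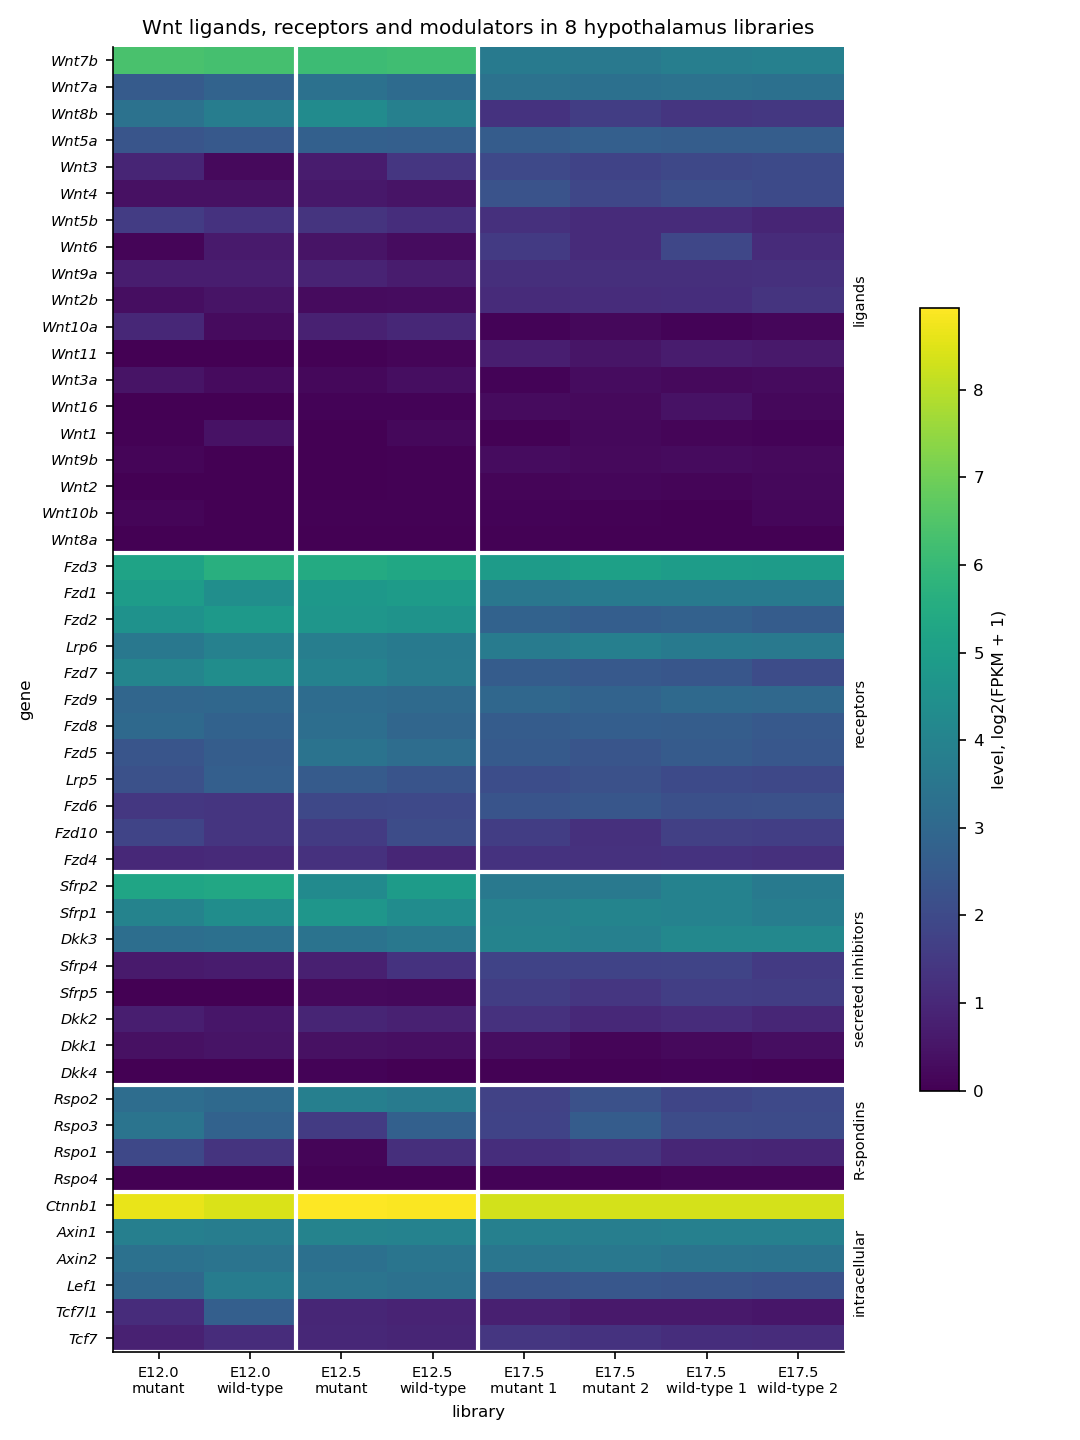
Level of each of the 49 genes, as log2(FPKM + 1) on the colour scale, in the 8 libraries, with mutant left of wild-type at each stage and genes ordered by mean level within their class. Ctnnb1 is the brightest row in every library, Wnt7b leads the ligands and dims at E17.5, and the lowest rows of the ligands stay near 0 throughout.

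Wnt7b, a ligand that acts through the canonical pathway in the developing brain, was the most abundant ligand in all 8 libraries. It stood at 81.6 FPKM in the mutant and 77.2 in the wild-type library at E12.0, at 69.0 and 71.6 at E12.5, and at 11.5 and 11.3 in the mutant against 13.0 and 13.7 in the wild-type libraries at E17.5. At E12 the genotypes lay close and changed places between the stages, while at E17.5 both mutant libraries were below both wild-type libraries. It made up 77.1% and 64.1% of the summed ligand FPKM in the early mutant libraries and 73.4% and 68.4% in the early wild-type ones, but 27.9% and 28.8% in the mutant and 29.8% and 32.5% in the wild-type libraries at E17.5.

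Wnt8b, a ligand known from the dorsal and caudal forebrain, showed a similar contrast of stages. Its level was 9.44 FPKM in the mutant and 12.9 in the wild-type library at E12.0, 18.7 and 13.7 at E12.5, then 1.46 and 2.09 in the mutant against 1.60 and 1.76 in the wild-type libraries at E17.5. All early libraries were above all late ones and the mutant was lower at E12.0 but higher at E12.5. Wnt7a, closely related to Wnt7b, stood at 4.88 FPKM in the mutant and 6.18 in the wild-type library at E12.0, at 9.17 and 7.74 at E12.5, and at 9.27 and 8.80 in the mutant against 9.34 and 8.86 in the wild-type libraries at E17.5. It did not share the late decline of Wnt7b, and its genotypes overlapped at E17.5.

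The set of ligands at 1 FPKM or more differed between the stages. At E12, 5 of the 19 averaged at least 1 FPKM, and at E17.5 10 did. Wnt4, a ligand of many developing organs, was between 0.317 and 0.503 FPKM in the early libraries, and stood at 3.84 and 2.73 in the mutant against 3.38 and 3.06 in the wild-type libraries at E17.5. Its late libraries lay above its early ones in both genotypes, as did those of Wnt2b, Wnt3, Wnt6 and Wnt9a. The other ligands under the limit, Wnt1, Wnt2, Wnt3a, Wnt8a, Wnt9b, Wnt10a, Wnt10b, Wnt11 and Wnt16, reached at most 0.989 FPKM in any library, that of Wnt10a in the E12.5 wild-type library.

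Among the receptors, Fzd3, a Frizzled needed for axon guidance, was the most abundant in each library. It stood at 35.4 FPKM in the mutant and 49.2 in the wild-type library at E12.0, at 42.6 and 39.1 at E12.5, and at 28.7 and 32.3 in the mutant against 29.8 and 28.9 in the wild-type libraries at E17.5. Fzd1 had 29.6 FPKM in the mutant and 20.4 in the wild-type library at E12.0, 26.4 and 29.2 at E12.5, then 10.7 and 11.8 in the mutant against 11.6 and 11.4 in the wild-type libraries at E17.5. Both genes were lower in every late library than in any early one, and their genotypes overlapped at E17.5.

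Fzd2, another Frizzled receptor, had the strongest stage contrast of the receptors. It stood at 22.4 FPKM in the mutant and 26.9 in the wild-type library at E12.0, at 25.0 and 23.1 at E12.5, and at 6.07 and 5.31 in the mutant against 5.91 and 5.01 in the wild-type libraries at E17.5. All 12 receptors averaged at least 1 FPKM at both stages. Their summed level was 141 and 159 FPKM in the early mutant libraries and 158 and 149 in the early wild-type ones, and 89.99 and 93.8 in the mutant against 91.4 and 86.0 in the wild-type libraries at E17.5.

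With 1 FPKM added to each mean, wild-type E12 libraries exceeded wild-type E17.5 libraries at least 4-fold for 3 members: Wnt8b by 5.35-fold, Wnt7b by 5.26-fold and Fzd2 by 4.02-fold. Of all genes tested over the stages, 1.87% did so. In the mutant the same ratios were 5.43 for Wnt8b, 6.16 for Wnt7b and 3.69 for Fzd2. No member was at least 4-fold higher at E17.5, where 4.66% of genes were. Of the 35 members tested over all stages, 12 had every early library above every late one, or 34.3%, beside 17.4% of all genes. The reverse held for 8, or 22.9%, beside 45.4% of all genes. The stages come from tables that may have been made separately, so how far the tables or the embryos differ in these shares was not tested. The summed FPKM of 6 progenitor markers, Sox2 and Nes among them, was between 834 and 1066 at E12 and between 304 and 333 at E17.5. Vim, the largest of the 6, had between 429 and 551 FPKM at E12 and between 174 and 200 at E17.5. The part of progenitors in the members' levels was not tested.

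**Figure D2:**
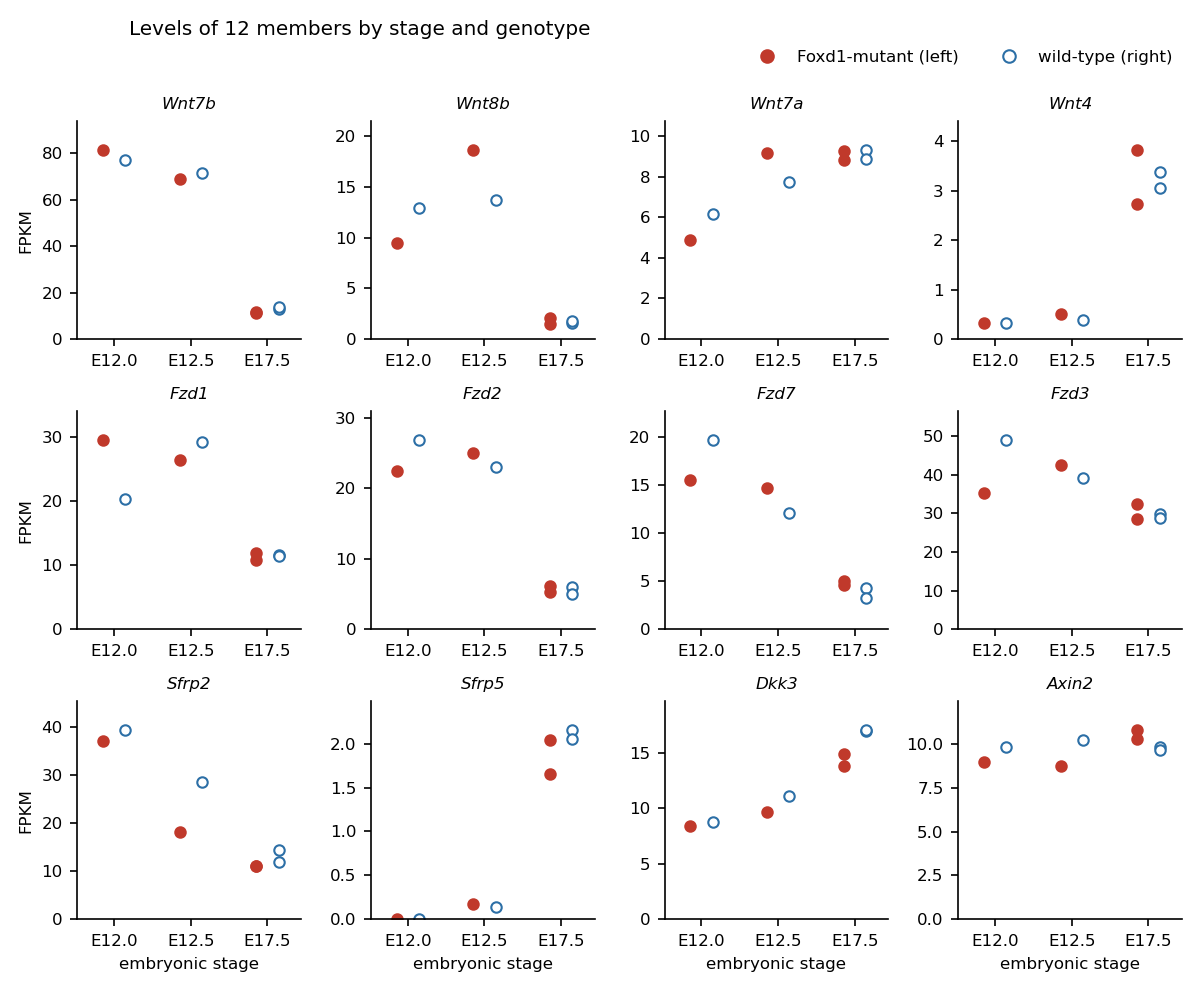
FPKM of 12 members by stage, each point 1 library, with mutant (filled, left) beside wild-type (open, right) at each stage and each panel on its own axis from 0. Wnt7b, Wnt8b, Fzd1, Fzd2 and Fzd7 lie high at E12, Wnt4, Sfrp5 and Dkk3 lie high at E17.5, and Axin2 stays between 8.74 and 10.8 FPKM.

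No member passed the adjusted threshold between genotypes in any of the 4 fits. At E17.5, 36 of the 49 members reached the level tested and 0 passed, with a smallest limma adjusted p of 0.689, beside 0.00756% of all genes. At unadjusted p under 0.05 there were 3 members, or 8.33%, beside 5.7% of all genes. That count was 10 without mutant replicate 1, or 27.8% beside 28.4% of genes, and 1 without wild-type replicate 1, or 2.78% beside 2.59%. Among the 36, 21 were higher and 15 lower in the mutant mean, with a median log2 difference of 0.03, and over all genes the median was 0.003. Both mutant libraries lay above both wild-type libraries for 8 members, where 20.9% of all genes did so, and below them for 9, where 22.2% did. The genotypes thus did not overlap for 47.2% of members, beside 43.1% of all genes, a share near that of all genes. Without mutant replicate 2, the library that stood apart in telencephalon markers, 20 of the 36 were higher and 16 lower, with a median of 0.02.

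Dkk3, a Dkk family member whose link to Wnt signalling is less clear than that of the others, was 1 of the 3. It stood at 8.40 FPKM in the mutant and 8.77 in the wild-type library at E12.0, at 9.63 and 11.1 at E12.5, and at 14.9 and 13.8 in the mutant against 16.99 and 17.1 in the wild-type libraries at E17.5. It was lower in the mutant at each stage, and at E17.5 averaged 14.4 ± 0.732 FPKM in the mutant and 17.04 ± 0.0727 in wild-type (SD, n = 2 each). The log2 difference at E17.5 was -0.23, SE 0.060, which did not pass (limma adjusted p = 0.689).

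Wnt7b averaged 11.4 ± 0.154 FPKM in the mutant and 13.3 ± 0.496 in wild-type at E17.5 (SD, n = 2 each). Its log2 difference was -0.21, SE 0.059 (limma adjusted p = 0.689). Rspo1, an R-spondin, stood at 1.24 and 1.53 FPKM in the mutant against 0.952 and 0.888 in the wild-type libraries at E17.5, so that the mutant libraries were the higher pair at a low level. The log2 difference of Rspo1 was 0.31, SE 0.11 (limma adjusted p = 0.689).

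By class, 8 of 12 receptors, 3 of 3 tested R-spondins and 3 of 5 tested intracellular members were higher in the mutant mean at E17.5, as were 4 of 10 tested ligands and 3 of 6 tested inhibitors. Of all genes 51% were higher, and the classes are small. In mutant replicate 1 alone Rspo2 and Rspo3 lay below both wild-type libraries, and their higher mutant means rest on replicate 2. Fzd7, a Frizzled known from stem cells, stood at 5.02 and 4.64 FPKM in the mutant against 4.29 and 3.26 in wild-type at E17.5, and Lrp5 at 3.34 and 3.66 against 3.03 and 2.82. Both were chosen after their values were seen, and in both the mutant libraries lay above the wild-type ones. Neither passed (limma adjusted p = 0.689 for each, log2 difference 0.30 for Fzd7 and 0.20 for Lrp5). Of the 12 receptors, both mutant libraries lay above both wild-type libraries for 4 and below them for 2, and the genotypes overlapped for 6. The 2 with the mutant below were Fzd10, at a log2 difference of -0.24, and Fzd9, at -0.13 (limma adjusted p = 0.689 for each). The value of Fzd10 was the lowest of the 36 members tested.

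**Figure D3:**
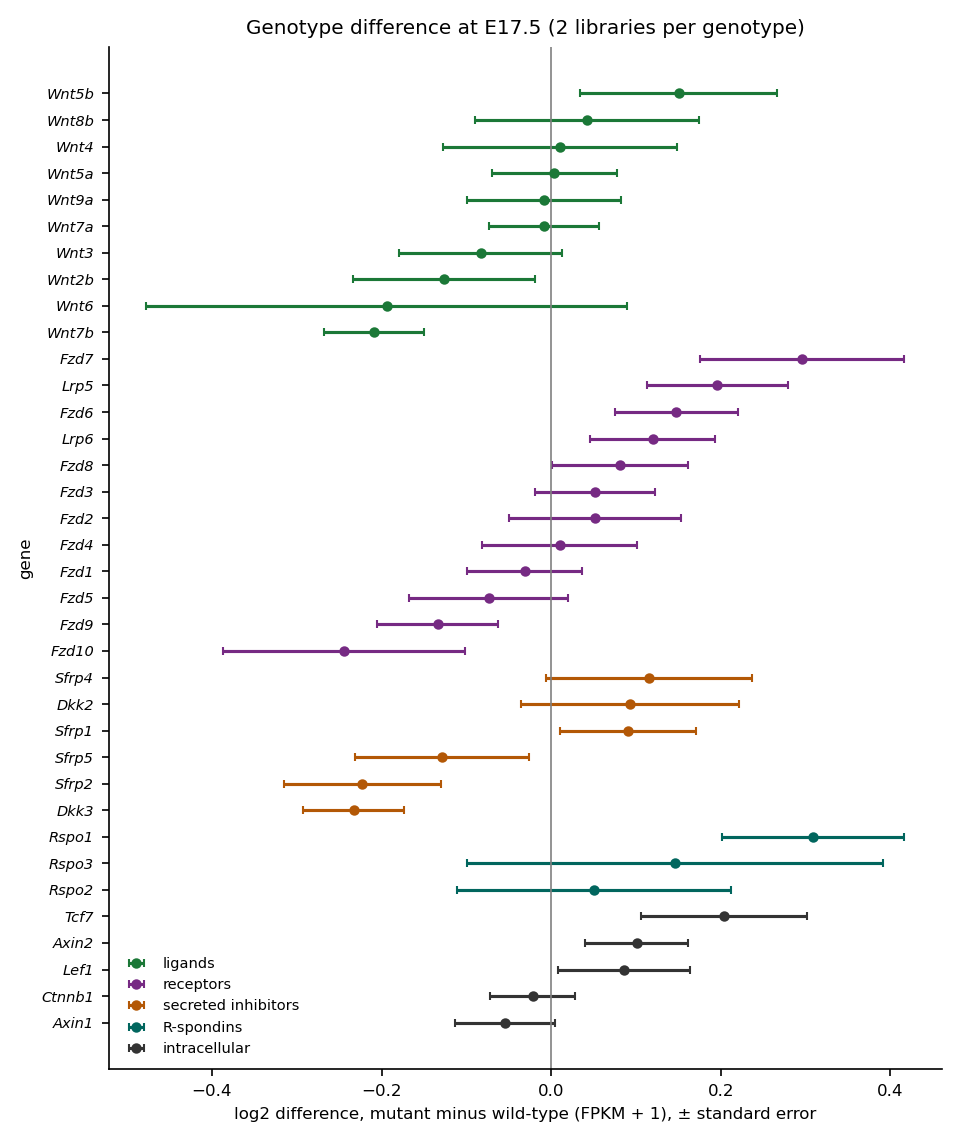
Log2 difference in FPKM + 1, mutant minus wild-type, with its standard error, for the 36 members tested at E17.5, from 2 libraries per genotype, coloured by class and sorted within it. The points lie between -0.24 and 0.31 on both sides of 0, and none passed the adjusted threshold.

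Sfrp2 and Sfrp1, secreted proteins that bind Wnts, were the inhibitors of highest mean level over the 8 libraries, with Dkk3 next. Sfrp2 stood at 37.3 FPKM in the mutant and 39.6 in the wild-type library at E12.0, at 18.2 and 28.6 at E12.5, and at 11.1 and 11.1 in the mutant against 14.4 and 11.9 in the wild-type libraries at E17.5. It was lower in the mutant at every stage, by the most at E12.5. Sfrp1 had 14.8 FPKM in the mutant and 19.6 in the wild-type library at E12.0, 25.1 and 19.5 at E12.5, then 14.1 and 15.4 in the mutant against 14.7 and 13.0 in the wild-type libraries at E17.5. Sfrp1 had no common direction over the stages, and its genotypes overlapped at E17.5. Sfrp5, chosen after its values were seen, was listed at 0 in both E12.0 libraries, stood at 0.167 FPKM in the mutant and 0.135 in wild-type at E12.5, and at 2.04 and 1.66 in the mutant against 2.16 and 2.06 in wild-type at E17.5.

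Over all stages, with stage as a block, 35 members were tested, 16 of them higher and 19 lower in the mutant, and 0 passed, as did 0.0% of all genes. At unadjusted p under 0.05 there were 4 members, or 11.4%, beside 5.55% of all genes. The count was 7 with 1 E12.0 library left out. That was 20% beside 9.15% of genes without the mutant and 20.6% beside 9.06% without the wild-type one. It was 2 with 1 E12.5 library left out, or 5.71%, beside 3.99% of genes without the mutant and 3.8% without the wild-type one. It was 1 without E17.5 wild-type replicate 2, or 3.03% beside 2.98% of genes. Sfrp2 was lower by a log2 difference of -0.29, SE 0.099 (limma adjusted p = 0.749). Dkk3 was lower by -0.18, SE 0.053 (limma adjusted p = 0.749). This fit shares the E17.5 libraries with the comparison above, so its values are not separate from it.

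The other pair was higher in the mutant. Fzd8, a Frizzled of the anterior neural plate, stood at 7.33 FPKM in the mutant and 6.07 in the wild-type library at E12.0, at 8.44 and 6.77 at E12.5, and at 5.06 and 5.42 in the mutant against 5.17 and 4.635 in the wild-type libraries at E17.5, a log2 difference of 0.17, SE 0.065 over all stages (limma adjusted p = 0.749). Wnt5b, whose promoter is printed above, stood at 2.02 FPKM in the mutant and 1.46 in the wild-type library at E12.0, at 1.56 and 1.27 at E12.5, and at 1.36 and 1.151 in the mutant against 1.17 and 0.901 in the wild-type libraries at E17.5. Its log2 difference was 0.19, SE 0.080 (limma adjusted p = 0.749). The genotypes of both genes overlapped at E17.5, and the mutant was the higher at both early stages.

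At E12, where the 2 stages were fitted together with stage as a block, 28 members were tested and 0 passed, with a smallest limma adjusted p of 0.976, beside 0.0335% of all genes. At unadjusted p under 0.05 there were 0 members, beside 1.41% of all genes. The members' median log2 difference was -0.04, with 11 higher and 17 lower in the mutant, and that of all genes was 0.009. The mutant library was higher at both stages for 5 of the 28 members, beside 3099 of 11952 genes, or 25.9%. It was lower at both for 3 members, beside 2611 genes, or 21.8%. The other 20 of 28 took opposite directions at E12.0 and E12.5. All genes, too, more often lacked a common direction than kept one. With 1 library per genotype at each stage, p here measures how far the stages disagree.

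Of the R-spondins, Rspo1 and Rspo3 took opposite directions at the early stages. Rspo3, which like Rspo1 is known from the dorsal neural tube, stood at 9.78 FPKM in the mutant and 6.03 in the wild-type library at E12.0, at 1.93 and 5.62 at E12.5, and at 2.49 and 5.003 in the mutant against 3.18 and 3.09 in the wild-type libraries at E17.5. Rspo1 stood at 2.82 FPKM in the mutant and 1.51 in wild-type at E12.0, but at 0.0889 and 1.29 at E12.5. Both were the higher in the mutant at E12.0 and the lower at E12.5. Rspo2, the third R-spondin, stood at 8.20 FPKM in the mutant and 7.29 in the wild-type library at E12.0, at 13.6 and 12.2 at E12.5, and at 2.36 and 3.64 in the mutant against 2.67 and 2.96 in the wild-type libraries at E17.5, and did not share this turn. Rspo4 reached at most 0.094 FPKM.

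At E12.5, 2-fold or more on the FPKM + 1 scale separated the genotypes for 2 of the 28 members, Rspo1 and Rspo3, both lower in the mutant, beside 0.535% of all genes. No member was 2-fold higher there, beside 0.167% of genes. At E12.0 1 member, Tcf7l1, was 2-fold lower, beside 1.83% of genes, and none was higher, beside 0.72%. Markers of the thalamus moved with Rspo1 and Rspo3. Gbx2, a gene of thalamic neurons, stood at 2.48 FPKM in the mutant and 0.954 in wild-type at E12.0, but at 0.630 and 8.20 at E12.5. Olig3, a gene of thalamic progenitors, stood at 9.12 in the mutant and 4.29 in wild-type at E12.0, and had 2.80 and 7.74 at E12.5. The 6 markers of thalamus and prethalamus summed to 95.4 FPKM in the mutant and 95.0 in wild-type at E12.0, but to 80.8 and 124 at E12.5. At E12.5 the sum, like Gbx2, Olig3, Rspo1 and Rspo3, was the lower in the mutant. The part of thalamic tissue in the R-spondin values was not tested. Wnt3, which had 0.906 FPKM in the mutant and 0.181 in wild-type at E12.0, but 0.601 and 1.65 at E12.5, turned in the same way and was chosen after its values were seen. Other members turned this way as well, Fzd1, Fzd10 and Wnt10a among them. Fzd10 had 2.54 FPKM in the mutant and 1.62 in wild-type at E12.0, but 1.90 and 3.17 at E12.5. The turn is thus not particular to Rspo1, Rspo3 and Wnt3.

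**Figure D4:**
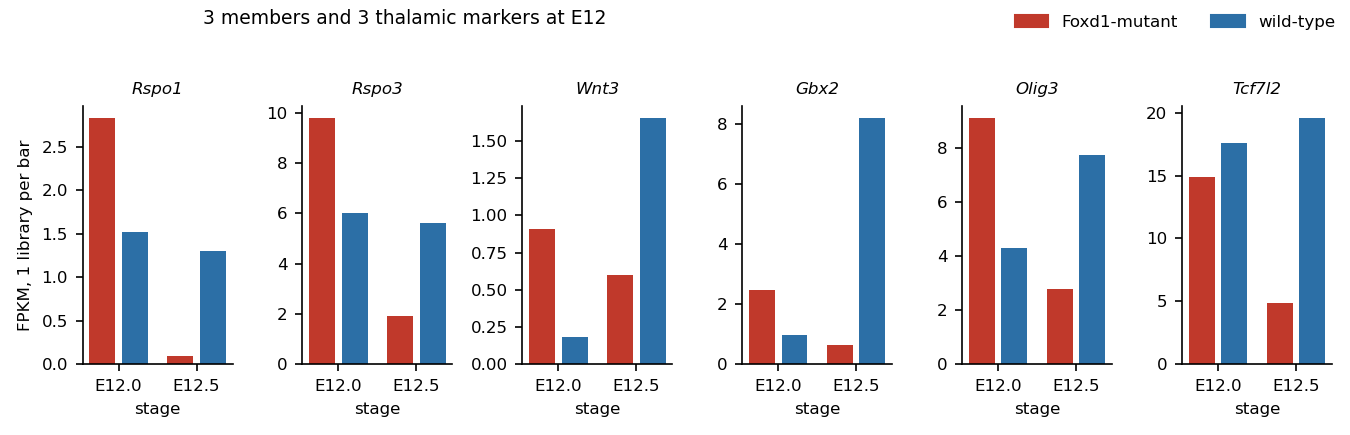
FPKM at E12.0 and E12.5 of the members Rspo1, Rspo3 and Wnt3 beside Gbx2, Olig3 and Tcf7l2, genes of the thalamus, each bar 1 library with mutant (red) left of wild-type (blue). Rspo1, Rspo3, Wnt3, Gbx2 and Olig3 are higher in the mutant at E12.0 and lower at E12.5, while Tcf7l2 is lower in the mutant at both, with 4.90 against 19.6 FPKM at E12.5.

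Among the intracellular members Ctnnb1 was the most abundant gene of all 49. It stood at 399.9 FPKM in the mutant and 340 in the wild-type library at E12.0, at 488 and 474 at E12.5, and at 318 and 324 in the mutant against 327 and 326 in the wild-type libraries at E17.5. Axin1 stood at 13.4 FPKM in the mutant and 12.7 in the wild-type library at E12.0, at 15.0 and 14.7 at E12.5, and at 13.8 and 13.0 in the mutant against 14.0 and 14.0 in the wild-type libraries at E17.5. Both genes were a little higher in the mutant at each early stage and a little lower at E17.5, and neither passed in any fit.

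Axin2, the feedback target, stood at 8.97 FPKM in the mutant and 9.84 in the wild-type library at E12.0, at 8.74 and 10.2 at E12.5, and at 10.3 and 10.8 in the mutant against 9.85 and 9.67 in the wild-type libraries at E17.5. The mutant was the lower at both early stages and the higher at E17.5. Genotypes apart at E17.5 and in the opposite direction at both early stages were found for Axin1, Axin2 and Ctnnb1, 3 of 35 members or 8.57%, beside 8.65% of all genes. The difference between the genotype effects, E17.5 minus E12, was tested in all 8 libraries for 35 members and 0 passed, beside 0.032% of genes. At unadjusted p under 0.05 there was 1 member, Axin2, or 2.86%, beside 3.95% of genes, and there was none without mutant replicate 2 or either wild-type library of E17.5. The difference was 0.26 on the log2 scale, SE 0.10 (limma adjusted p = 0.749).

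Tcf7l1 and Lef1, nuclear partners of beta-catenin, stood out in the E12.0 wild-type library and were chosen after their values were seen. Tcf7l1, known mainly as a repressor, had 1.21 FPKM in the mutant and 5.52 in wild-type at E12.0, whereas it had 0.961 and 0.847 at E12.5. Lef1 had 7.11 and 12.4 at E12.0, but 9.80 and 9.12 at E12.5. The wild-type library at E12.0 was the highest of the 8 for both. It was also the highest for other pathway genes: Dvl3, a Dishevelled relay of the receptors, had 8.68 FPKM in the mutant and 30.4 in wild-type at E12.0, but 12.3 and 10.96 at E12.5. With either E12.0 library left out, the E12 value is the E12.5 difference of 1 mutant and 1 wild-type library, and the members' median was then 0.09.

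At E17.5 the tables listed several transcripts for 8 of the members tested, and their shares were compared after the values were seen. These shares are estimates that divide reads shared by transcripts. The Ctnnb1 transcript NM_001165902 held 54.6% and 65.4% of the gene's FPKM in the mutant against 43.8% and 46.2% in the wild-type libraries, a mean of 60.0% ± 7.64 in the mutant and 45.0% ± 1.71 in wild-type (SD, n = 2 each). The Ctnnb1 total differed little between genotypes, as given above. The Fzd6 transcript NM_001162494 held 75.7% and 62.2% of that gene's FPKM in the mutant against 81.2% and 93.9% in the wild-type libraries. In both genes the genotypes did not overlap. Such a share, not overlapping and at least 10 points apart, was found for 2 of the 8 members, beside 9.8% of genes with several transcripts. The Wnt7b transcript NM_009528 held 55.0% and 56.6% in the mutant against 66.4% and 61.9% in wild-type, which was under 10 points apart.

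**Figure D5:**
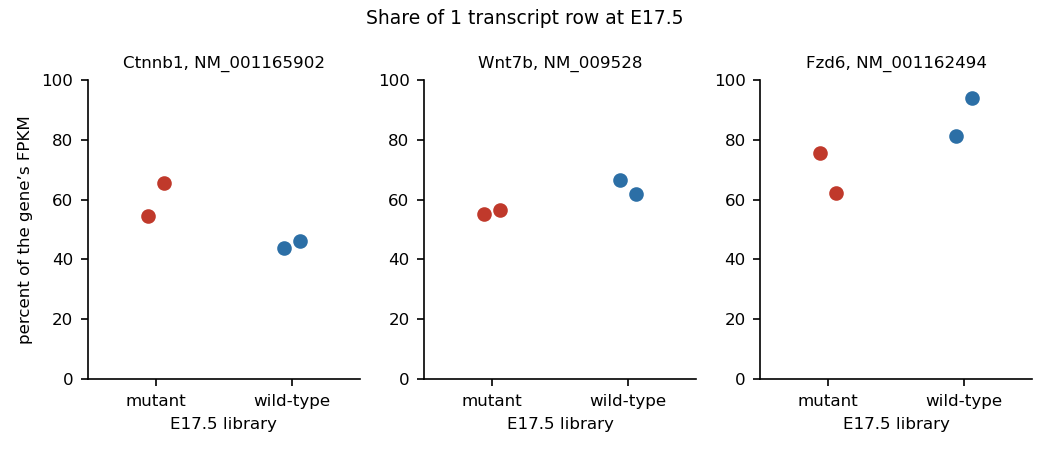
Percent of a gene's FPKM held by 1 transcript row at E17.5 for Ctnnb1, Wnt7b and Fzd6, each point 1 library, mutant left of wild-type. The share of Ctnnb1 NM_001165902 is higher in both mutant libraries, and those of Wnt7b NM_009528 and Fzd6 NM_001162494 are lower in both.

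Of 62 other genes of the pathway, 55 were tested at E17.5, 29 higher and 26 lower in the mutant, and 0 passed. Of all genes 51% were higher and 0.00756% passed. At unadjusted p under 0.05 there were 3 of the 55, beside 5.7% of all genes. Wls, which carries Wnt proteins to the cell surface, stood at 21.3 and 22.6 FPKM in the mutant against 19.7 and 17.7 in wild-type, a log2 difference of 0.22, SE 0.071 (limma adjusted p = 0.689). The mutant libraries were the higher pair. Dact2, a modulator of Dishevelled, stood at 1.81 and 1.62 FPKM in the mutant against 2.18 and 2.15 in wild-type, and Pygo2, a nuclear cofactor of beta-catenin, at 22.9 and 21.0 against 25.5 and 24.9, both lower in the mutant. Their log2 differences were -0.22 for Dact2 and -0.19 for Pygo2 (limma adjusted p = 0.689 for each).

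At E12, 48 of these other genes were tested, 16 higher and 32 lower in the mutant, with a median log2 difference of -0.11 and 0 past the adjusted threshold. Of all genes 52.2% were higher, with a median of 0.009, and 0.0335% passed. At unadjusted p under 0.05 there were 3 of the 48, beside 1.41% of all genes, each with a limma adjusted p of 0.976. They were Draxin (-0.39), a secreted guidance protein that also inhibits Wnt signalling, and Fat4 (-0.37), an atypical cadherin of planar polarity. With them was Tcf7l2 (-1.01), a nuclear partner of beta-catenin and marker of the thalamus. Over all stages 51 of the other pathway genes were tested, 16 higher and 35 lower, and 0 passed. Of all genes 50.7% were higher, 5.55% were at unadjusted p under 0.05 and 0.0% passed. At unadjusted p under 0.05 Wls (0.28), Ror2 (0.26), a Wnt5a receptor, and Tnfrsf19 (0.19), a receptor of the TNF family, were higher. Apc2 (-0.16), a member of the destruction complex family, and Dchs1 (-0.13), the cadherin partner of Fat4, were lower, each with a limma adjusted p of 0.749. In the difference between E17.5 and E12, Draxin (0.53), Fat4 (0.59), Nkd1 (0.31), a feedback inhibitor, and Pygo2 (-0.33) were at unadjusted p under 0.05. Each had a limma adjusted p of 0.749, and 0 of 51 passed. Of all genes 3.95% were at unadjusted p under 0.05 and 0.032% passed.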

How the data were processed

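Per the submitters' processing notes, reads were handled with TopHat and Cufflinks on mouse build mm9, with versions not given in the sources used here, and the libraries were paired-end with 100 cycles on a HiSeq 2500. The deposited FPKM values were used as given. There were 23737 gene rows per table at E12 and 32952 transcript rows at E17.5. Rows sharing a symbol were summed, and 8 unnamed E12 rows, with between 0.0285% and 0.0360% of FPKM, were left out. The members and lists were chosen with earlier results of these data known.

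Values were taken as log2(FPKM + 1), so fold changes of low genes are understated. Two-sided tests with limma 3.58.1 in R 4.3.3, with a variance trend, covered genes averaging 1 FPKM or more in the libraries fitted. The E17.5 fit used 4 libraries, the E12 fit 4 with stage as a block, and the all-stage and difference fits 8. The fits were tested on simulated data. Transcript shares and promoter letters were compared after the values were seen. FPKM gave no counts for a count model. Low values stepped by whole fragments, within 0.1, in 79.7% to 81.8% of cases at E17.5, which put depth at 40.3 and 30.4 M fragments in mutant and 34.4 and 43.0 M in wild-type libraries. The E12 steps gave no firm depth.

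Values in every library were given for the 3 members of each class with the highest mean, for members at unadjusted p under 0.05, for those whose genotypes did not overlap at E17.5 with a log2 difference of at least 0.3, and for those at least 4-fold apart between wild-type stages. Of other pathway genes, at most 6 per fit at unadjusted p under 0.05 were named. Alternatives changed the pseudocount, filter, normalization, small RNA genes, spread estimate, joining of rows, blocks and libraries used. Python 3.11.15, numpy 2.4.6, pandas 2.3.3 and matplotlib 3.10.9 were used.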

Additional observations from a re-analysis of the deposited data

Results flagged for a closer look

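For 3 members both E17.5 mutant libraries lay on one side of both wild-type libraries while the mutant lay on the opposite side at both early stages. They are 8.57% of the 35 members tested, beside 8.65% of all genes. The difference between the genotype effects, E17.5 minus E12 on the log2 scale, was 0.262 for Axin2 (limma adjusted p = 0.749), -0.159 for Ctnnb1 (limma adjusted p = 0.749) and -0.0974 for Axin1 (limma adjusted p = 0.769). None passed the test of the difference itself.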

How the results depend on the processing

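For the 15 pairs of a member and a fit followed at unadjusted p under 0.1, 243 of 244 alternative values kept the direction and the side of the adjusted threshold. The exception was Fzd6 at E17.5, at -0.12 (limma adjusted p = 0.745) where the transcript row of the highest mean stood for the gene; that setting leaves out the other row. The number of members called at E12 was between 0 and 7 when 1 library was left out. It was 7 of 35, or 20%, without the E12.5 mutant or without the E12.5 wild-type library, beside 18.1% (2276) and 19.2% (2414) of all genes, a share near that of all genes. The value is then the E12.0 difference alone, and the lone libraries are assumed to vary like the other groups. The median of members at E12 was between -0.057 and 0.088 with 1 library left out, and that of the difference fit between 0.0077 and 0.12 with 1 E17.5 library left out, and -0.055 without both E12.0 libraries; the cause was not tested. With the replicate block at E17.5, 16 genes were called, against 1 without it, and 0 members; same-numbered libraries deviated with a correlation of 0.028 over genes, so they share a number only, and with 2 pairs no more can be read from it. Over all alternatives, between 0 and 44 genes were called at E17.5. Without the stage block 78 genes were called at E12, against 4 with it, and 0 members. With small RNA genes left out, 25 of 38 members at E17.5, or 65.8%, had the higher mean in the mutant, beside 58.6% of all genes, whose median was 0.025. Depth is known only by estimate at E17.5, so counting error of low members such as Rspo1 could not be given.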
